A study of Mus musculus with 6 samples.

Results

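The REST and CoREST repressor complex was followed through 9 genes: Rest, Rcor1, Rcor2, Rcor3, Kdm1a, Hdac1, Hdac2, Gse1 and Zmym2. They were chosen by name as REST, its CoREST scaffolds and the demethylase, deacetylases and associated proteins that act with them. All 9 of the 23845 genes in the count table were matched, and all 9 were among the 13935 genes with enough counts to test. RNA of mouse intestinal epithelial cells was sequenced in 6 libraries, 2 in each of 3 groups. The first group, here EYFP cells, had the genotype Neurog3+/+EYFP, with 2 Neurog3 alleles and a yellow fluorescent reporter, on a mixed C57BL6 and CD1 background. The second, here EGFP cells, was Neurog3+/-EGFP, with 1 Neurog3 allele and a green fluorescent reporter, on C57BL6. The wild-type group was C57BL6 and carried no reporter that the labels name, and the titles of its libraries alone begin with Duod. Cells that expressed Neurog3, the transcription factor that starts enteroendocrine differentiation, were collected by flow sorting. Number of alleles, reporter line and strain background differ together between EYFP and EGFP cells and cannot be told apart. The gates, the gut segment that was sorted, the animals behind a library and any sorting of wild-type cells were not given in the sources used here. Nothing in the labels says that the libraries of a group came from separate animals, so p-values measure the spread between these libraries, which may be technical.

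REST is a zinc finger protein that binds the RE1 element in and near genes of neurons and endocrine cells and keeps them silent in other tissues. Its C-terminal end recruits a CoREST scaffold, which holds the histone demethylase Kdm1a (LSD1) together with the deacetylases Hdac1 and Hdac2, while its N-terminal end recruits Sin3. Kdm1a, CoREST and the deacetylases are also recruited by factors with a SNAG domain, such as Insm1 of endocrine progenitors and Gfi1 of secretory and blood progenitors, so the enzymes of the complex work in cells with little REST as well.

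The members did not move as one. Rest, the DNA-binding member, was 3.8-fold lower in EYFP cells than in EGFP cells, whereas Rcor2, a CoREST scaffold best known from neural and pluripotent cells, was 2.65-fold higher. Kdm1a, Gse1, Zmym2 and Rcor3 were 1.75-fold to 1.91-fold higher in EYFP cells. Rcor1, the widely expressed scaffold, had an estimated log2 fold change near 0, and Hdac1 and Hdac2 did not pass the test between EYFP and EGFP cells.

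The letters that REST reads were looked up in the promoters of 36 genes known as REST targets. The RE1 has a left part, TTCAGCACC, and a right part, GGACAGC, and RefSeq promoters of the mm10 assembly, from 250 bases before to 50 after the start of each gene, were searched on both strands. The left part was in 117 of 27025 promoters (0.433%) and in 5 of the 23 target promoters that had an entry. The right part was in 2051 promoters (7.59%) and also in 5 of the 23, those of Scg2, Unc13a, Tubb3, Gria2 and Atp2b2. A core of AGCACC and GGACA with 2 bases between them, which overlaps both parts, was in 21 promoters (0.0777%), 2 of them target promoters. The 6 target genes with the left part or the core are shown to set these letters beside the genes' values, each as 21 bases, with the left part and the core in capitals. The right part within the Scg2 and Gria2 stretches is not set in capitals.
Celsr3: TTCAGCACCgtgggcagcact
Unc13a: TTCAGCACCgggggcgcggac
Dner: TTCAGCACCaaGGACAagggc
Syn1: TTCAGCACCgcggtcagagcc
Scg2: TTCAGCACCggacagctcctc
Gria2: tttAGCACCgcGGACAgcgct
The Celsr3 stretch lies at chr9:108825918-108825938 on the plus strand and the Unc13a stretch at chr8:71671727-71671747 on the plus strand. The Dner stretch lies at chr1:84696351-84696371 on the minus strand and the Syn1 stretch at chrX:20921130-20921150 on the minus strand. The Scg2 stretch lies at chr1:79440025-79440045 and the Gria2 stretch at chr3:80802989-80803009, both on the plus strand. Celsr3, Unc13a, Dner, Syn1 and Scg2 share the left part, and Dner and Gria2 share the core. A match describes letters in this window and shows neither binding nor a function.

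Levels are CPM, counts divided by the TMM-scaled library total, and tests are edgeR's quasi-likelihood F test over all genes, called at an adjusted p under 0.05. Library totals ran from 7938358 to 20589683 counts. Neurog3 checked the labels, with 563 and 348 CPM in EYFP cells, 120 and 179 CPM in EGFP cells, and 6 and 6.39 CPM in wild-type cells. EYFP cells were 1.61 ± 0.28 (SE) above EGFP cells in log2 Neurog3 (edgeR adjusted p = 0.0049). The summed CPM of 12 enteroendocrine markers was 11286 and 22453 in EYFP cells, 6868 and 10071 in EGFP cells and 238 and 312 in wild-type cells. The sum of 6 goblet markers was 681 and 1751 in EYFP cells, 56118 and 92967 in EGFP cells and 5093 and 5891 in wild-type cells. That of 6 Paneth markers was 586 and 312 in EYFP cells, 10971 and 13067 in EGFP cells and 10775 and 16745 in wild-type cells. EGFP cells thus held most of the goblet marker RNA and EYFP cells little of either. Xist, made from the inactive X chromosome, had 0.634 and 2.36 CPM in EYFP cells, 966 and 969 CPM in EGFP cells and 1.17 and 726 CPM in wild-type cells. It was high in both EGFP libraries and in 1 of the 2 wild-type libraries. Between EYFP and EGFP cells Xist gave -9.37 ± 3.53 (SE) in log2, which did not pass edgeR's test over all 6 libraries (adjusted p = 0.13). It passed edgeR's test in the 4 libraries compared alone (adjusted p = 0.00056) and DESeq2's Wald test (-9.26, adjusted p = 0.00017). The levels of Xist thus differed along with allele number, reporter line and strain background, and cannot be told apart from them. In these bulk libraries fewer cells of a type and less RNA per cell cannot be told apart.

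Rest (chr5:77265494-77286432) was the only one of the 9 members that fell in EYFP cells. It had 3.24 and 3.28 CPM in EYFP cells, 13 and 11.8 CPM in EGFP cells, and 18.5 and 17.1 CPM in wild-type cells. The EYFP values stood on 46 and 39 counts, the EGFP values on 108 and 140, and the wild-type values on 222 and 284. Each group lay below the next with no overlap, and the EYFP libraries were far below both other groups. EYFP cells averaged 3.26 ± 0.0275 CPM against 12.4 ± 0.84 CPM in EGFP cells (SD, n = 2 each), a log2 fold change of -1.93 ± 0.22 (SE, edgeR adjusted p = 0.00086). Against the wild-type mean of 17.8 ± 0.963 CPM, the log2 fold change of EYFP cells was -2.44 ± 0.22 (adjusted p = 5.9e-05), 5.44-fold lower. For EGFP over wild type it was -0.52 ± 0.20 (adjusted p = 0.076), which did not pass. Leaving out any 1 library, the log2 fold change of EYFP over EGFP cells was -1.80 at its weakest, with adjusted p at most 0.011. The authors' deposited table gives a fold of 0.261 for EYFP over EGFP cells with an adjusted p of 1.1e-05.

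Among 9684 genes with a mean of at least 10 CPM, those whose log2 CPM followed Rest most closely over the 6 libraries were Itgam, Gpsm2 and Yap1. Their Pearson r was 0.999, 0.999 and 0.998, and the 6 libraries form 3 groups, so r mostly reflects the group levels. Yap1, the transcriptional coactivator of the Hippo pathway, had 16.6 and 18 CPM in EYFP cells, 64.4 and 59.2 CPM in EGFP cells and 82.4 and 80.8 CPM in wild-type cells. Gpsm2, a protein that orients the mitotic spindle, had 31.2 and 31.7 CPM in EYFP cells, 91.4 and 90.8 CPM in EGFP cells and 122 and 116 CPM in wild-type cells. Itgam is an integrin chain of myeloid cells and had 2.26 and 2.27 CPM in EYFP cells, 12.8 and 10.9 CPM in EGFP cells and 21.2 and 18.9 CPM in wild-type cells. All 3 stood in the same order of groups as Rest, lowest in EYFP cells. The summed CPM of 6 immune markers, Itgam among them, was 28.5 and 6.98 in EYFP cells, 15.4 and 21.4 in EGFP cells and 132 and 156 in wild-type cells. The sums of EYFP and EGFP cells overlapped only through Csf1r in EYFP replicate 1. Csf1r had 19.3 and 0 CPM in EYFP cells and 0 and 3.3 CPM in EGFP cells. The part of immune cells in the level of Rest was not tested.

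Genes of dividing cells also stood lowest in EYFP cells. The 12 cell cycle genes listed had a median log2 fold change of -2.27 in EYFP over EGFP cells, against 0.01 over all genes tested. All 12 were lower, beside 19.4% of all genes. Leaving out any 1 library gave 11 or 12. Their summed CPM was 279 and 361 in EYFP cells, 1423 and 1254 in EGFP cells and 1468 and 1049 in wild-type cells. Mki67, the Ki-67 proliferation antigen, had 55.5 and 90.9 CPM in EYFP cells, 352 and 329 CPM in EGFP cells and 431 and 269 CPM in wild-type cells. The mitotic kinase Plk1 changed most between EYFP and EGFP cells, by -3.27 ± 0.26 (SE) in log2, followed by Rrm2, a ribonucleotide reductase subunit, by -2.79 ± 0.27. Against wild-type cells, all 12 fell in EYFP cells, beside 33.5% of all genes lower. The spindle checkpoint kinase Bub1 changed most there, by -2.75 ± 0.33. Between EGFP and wild-type cells Plk1 alone passed, beside 19.6% of all genes higher and 21.9% lower. It was higher in EGFP cells by 0.99 ± 0.23 (edgeR adjusted p = 0.011). Plk1 no longer passed without EGFP replicate 2 (0.88, adjusted p = 0.068) or wild-type replicate 2 (0.85, adjusted p = 0.073). The summed CPM of 5 crypt stem cell markers was 581 and 590 in EYFP cells, 1344 and 1106 in EGFP cells and 1640 and 1065 in wild-type cells. The part of dividing and stem cells in the members' levels was not tested.

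**Figure D1:**
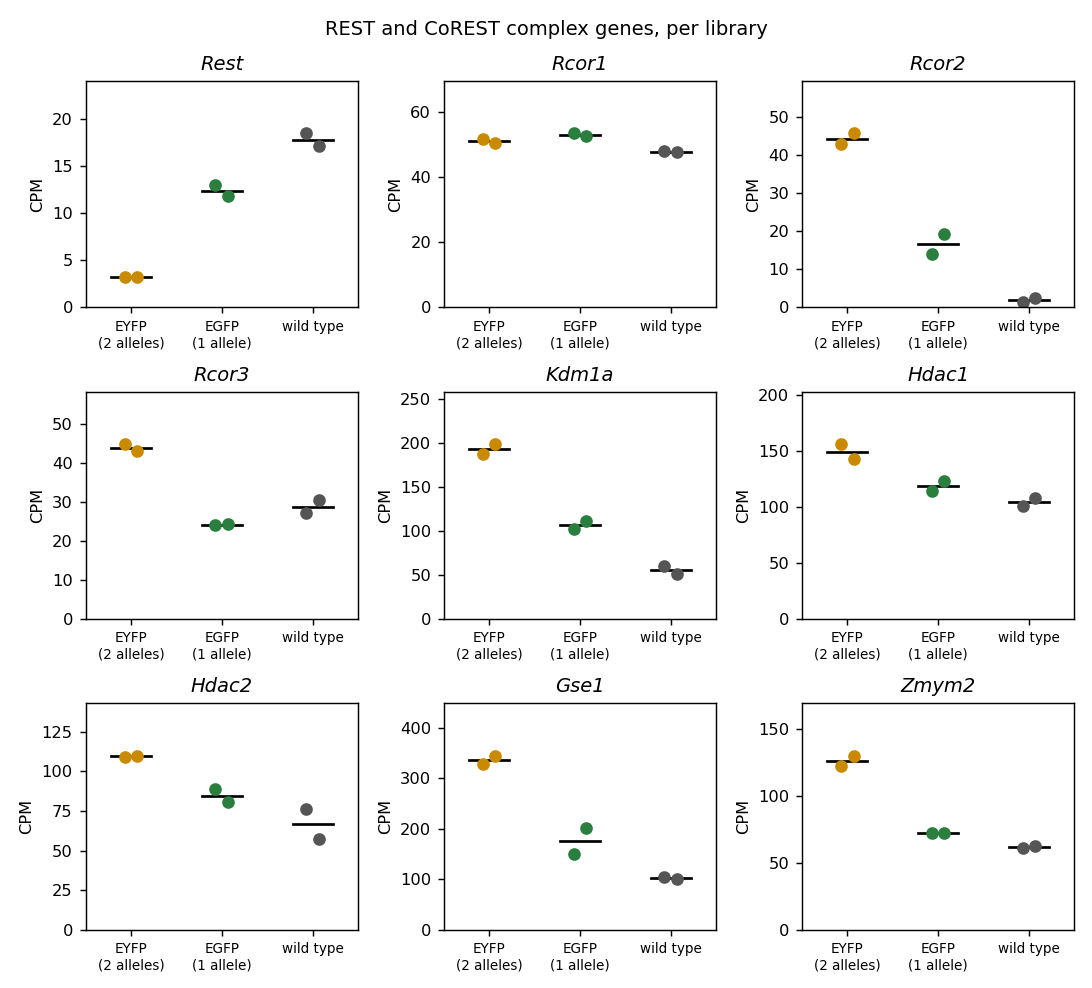
Level of each of the 9 genes in CPM (linear axis from 0) in EYFP, EGFP and wild-type cells, with 1 point per library and a bar at the mean of 2. Rest is lowest and Rcor2 highest in EYFP cells, and the points of Rcor1 lie between 47.7 and 53.4 CPM in all groups.

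Counted together, 5 of the 9 members were higher in EYFP cells than in EGFP cells (Rcor2, Rcor3, Kdm1a, Gse1 and Zmym2), where 16.8% of all genes tested were higher. The 1 lower member was Rest, where 19.4% of all genes were lower, and 3 did not pass. The median log2 fold change of the 9 was 0.80. Between EGFP and wild-type cells, Rcor2, Kdm1a and Gse1 were higher, 3 of 9 beside 19.6% of all genes. In that comparison 0 of 9 were lower by edgeR's test beside 21.9% of all genes; 1 member, Rest, had an unadjusted p under 0.05, and DESeq2 called 0. The median was 0.23, against 0.00 over all genes. Between EYFP and wild-type cells, 7 of 9 were higher, all but Rest and Rcor1, beside 27.1% of all genes, and Rest was lower beside 33.5%. There the median was 0.72, against -0.12 over all genes. The 3 comparisons share groups, so they are not independent counts. Requiring a fold of at least 2 left 1, 1 and 4 higher members in the comparisons as listed. In EYFP over EGFP, that was 1 of 9 members beside 1488 of the 13935 genes tested. For the comparisons with wild type, the number of all genes higher at that fold is not given here. The member counts of 1 and 4 there thus stand without a share over all genes. Without any 1 library, the count between EYFP and EGFP cells stayed at 5 higher and 1 lower.

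Rcor2 (chr19:7267394-7275225) had the largest rise of the 9 in every comparison. Between EYFP and EGFP cells the fall of Rest was larger, at 3.8-fold. EYFP cells had 42.9 and 45.8 CPM, EGFP cells 14 and 19.4 CPM and wild-type cells 1.5 and 2.47 CPM, the last on 18 and 41 counts. The groups did not overlap, and each stood severalfold from the next. Their means were 44.3 ± 2.01 CPM in EYFP cells, 16.7 ± 3.8 CPM in EGFP cells and 1.99 ± 0.688 CPM in wild-type cells (SD, n = 2 each). The log2 fold change was 1.40 ± 0.25 for EYFP over EGFP cells (SE, edgeR adjusted p = 0.0042). EGFP over wild type gave 3.04 ± 0.29 (adjusted p = 0.00017), an 8.24-fold difference, and EYFP over wild type 4.45 ± 0.29 (adjusted p = 1.5e-05), a 21.8-fold difference. The authors' deposited table gives 2.63 for EYFP over EGFP cells with an adjusted p of 8.7e-07.

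The 250 bases before the start of Rcor2, chr19:7267144-7267393 on the plus strand in RefSeq's mm10, are shown because no member rose more. Capitals mark the right part of the RE1, GGACAGC.
Rcor2 promoter: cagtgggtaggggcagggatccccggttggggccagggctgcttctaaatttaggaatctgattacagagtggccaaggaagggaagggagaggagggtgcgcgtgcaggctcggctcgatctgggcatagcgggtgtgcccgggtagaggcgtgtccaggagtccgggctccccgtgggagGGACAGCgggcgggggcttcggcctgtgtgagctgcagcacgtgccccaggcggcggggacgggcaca
That part was in 7.59% of all promoters and in 3 of the 7 members with an entry, Rcor2, Gse1 and Zmym2. The left part, the core and the E-box CAGATG, a form bound by factors of Neurog3's class and present in 19.2% of promoters, were in the window of 0 of the 7. Rcor2 had 17 CpG dinucleotides in its 250 bases and a GC content of 67.6%. It had the fewest CpG of the 7 members, whose most was 39 in Rcor3, beside a median of 11 over 17491 protein-coding genes, of which 34.2% had at least 17.

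The genes most like Rcor2 over the 6 libraries were Rgl3, Spock2 and Cuedc1, each with a Pearson r of at least 0.999 on log2 CPM. Rgl3, an exchange factor for Ral GTPases, had 33.1 and 34.9 CPM in EYFP cells, 10.3 and 15.1 CPM in EGFP cells and 1.08 and 1.75 CPM in wild-type cells. Spock2, an extracellular matrix proteoglycan, had 34.7 and 37.5 CPM in EYFP cells, 9.77 and 14.9 CPM in EGFP cells and 0.666 and 1.15 CPM in wild-type cells. Cuedc1, a protein with a ubiquitin-binding CUE domain, had 58.3 and 63.2 CPM in EYFP cells, 25.9 and 34.4 CPM in EGFP cells and 4.91 and 7.3 CPM in wild-type cells. All 3 were highest in EYFP cells and lowest in wild-type cells, as Rcor2 was.

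The other scaffolds behaved differently. Rcor1 (chr12:111039367-111115902), the scaffold first found with REST, had 51.7 and 50.4 CPM in EYFP cells, 53.4 and 52.6 CPM in EGFP cells and 47.9 and 47.7 CPM in wild-type cells. Its log2 fold change of EYFP over EGFP cells was -0.05 ± 0.13 (SE, edgeR adjusted p = 0.77), with a sign that turned under DESeq2's scaling (0.02), its Wald test (0.02) and without EGFP replicate 1 (0.01), and it passed no comparison. Rcor3 (chr1:192098546-192138074), a paralog of both, had 44.8 and 43.2 CPM in EYFP cells, 24 and 24.4 CPM in EGFP cells and 27.1 and 30.5 CPM in wild-type cells. It was higher in EYFP than in EGFP cells by 0.86 ± 0.15 in log2 (adjusted p = 0.0043) and than in wild-type cells by 0.61 ± 0.15 (adjusted p = 0.0082). EGFP cells lay below wild-type cells without overlap, at -0.25 ± 0.15 (adjusted p = 0.23), which did not pass. Exons of Rcor3 share 667 bases with the antisense gene Gm26879, 336 with the antisense gene Gm10516 and 133 with Gm37055 in GENCODE, of which Gm10516 has a row in the count table, and strand use in the counting is not given in the sources used here, so its level is uncertain. Gm10516 had 5.29 and 6.31 CPM in EYFP cells, 4.82 and 4.48 CPM in EGFP cells and 8.58 and 13.8 CPM in wild-type cells.

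Per kilobase of transcript, the makeup of the 3 scaffolds changed with the group. Rcor2 made up 29.9% and 31.9% of their summed CPM per kilobase in EYFP cells, 14.8% and 19.4% in EGFP cells and 1.88% and 2.94% in wild-type cells. Rcor1 made up 37.4% and 36.4% in EYFP cells, 58.6% and 54.8% in EGFP cells and 62.4% and 58.9% in wild-type cells. Rcor3 made up 32.8% and 31.7% in EYFP cells, 26.7% and 25.8% in EGFP cells and 35.7% and 38.2% in wild-type cells. The 3 genes thus stood near equal shares in EYFP cells, while Rcor1 held most of the sum in both other groups. The sum itself was 50.9 and 50.8 CPM per kilobase in EYFP cells, 33.5 and 35.3 in EGFP cells and 28.2 and 29.8 in wild-type cells. These shares are descriptions without a test.

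**Figure D2:**
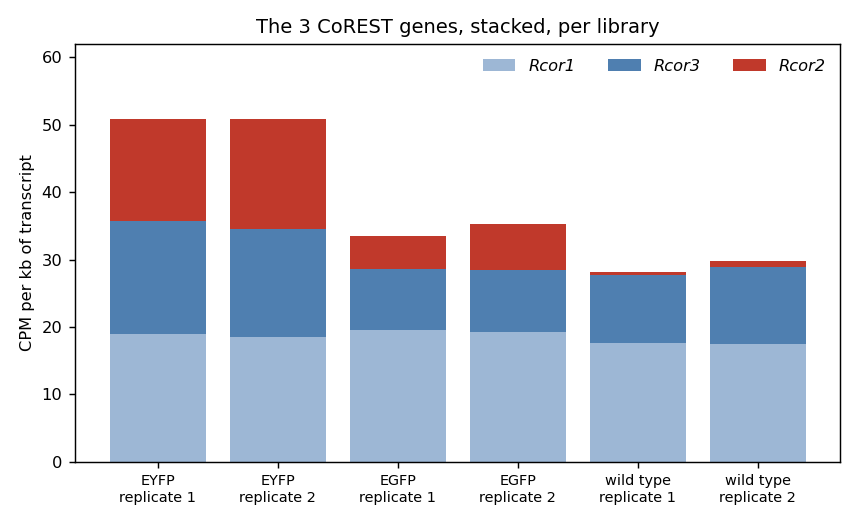
Stacked bars of Rcor1, Rcor3 and Rcor2 in CPM per kilobase of transcript (linear axis from 0), 1 bar per library. Rcor2 takes 29.9% and 31.9% of the bar in EYFP cells and 1.88% and 2.94% in wild-type cells, while the Rcor1 part lies between 17.5 and 19.6 CPM per kilobase throughout.

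Kdm1a (chr4:136550533-136602787), the demethylase of histone H3 lysine residues at the centre of the complex, differed between all 3 groups. It had 187 and 198 CPM in EYFP cells, 102 and 111 CPM in EGFP cells and 59.5 and 50.4 CPM in wild-type cells, with no overlap. The log2 fold change was 0.85 ± 0.14 for EYFP over EGFP cells (SE, edgeR adjusted p = 0.0035), 1.8-fold. EGFP over wild type gave 0.96 ± 0.14 (adjusted p = 0.0013), 1.95-fold, and EYFP over wild type 1.81 ± 0.15 (adjusted p = 3.5e-05), 3.5-fold. The ratio of Kdm1a to Rest per kilobase was 134 and 140 in EYFP cells, 18.3 and 21.9 in EGFP cells and 7.5 and 6.85 in wild-type cells.

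The deacetylases differed less. Hdac1 (chr4:129516104-129542646) had 156 and 143 CPM in EYFP cells, 114 and 123 CPM in EGFP cells and 101 and 108 CPM in wild-type cells. EYFP cells were above EGFP cells in both libraries, by 0.34 ± 0.13 (SE) in log2, which did not pass edgeR's test (adjusted p = 0.08) but passed with DESeq2's size factors (0.41, adjusted p = 0.038) and DESeq2's Wald test (0.41, adjusted p = 0.021). EYFP over wild type gave 0.52 ± 0.13 (edgeR adjusted p = 0.01), 1.43-fold, which was lost without EYFP replicate 1 (0.45, adjusted p = 0.074). Hdac2 (chr10:36974297-37001889) had 109 and 110 CPM in EYFP cells, 89.1 and 80.4 CPM in EGFP cells and 76.4 and 57 CPM in wild-type cells. It was higher in EYFP than in wild-type cells by 0.72 ± 0.17 (adjusted p = 0.0065), and EYFP over EGFP cells gave 0.37 ± 0.17 (adjusted p = 0.12). Hdac2 gave 0.35 ± 0.17 for EGFP over wild type (adjusted p = 0.14), passing without wild-type replicate 1 (0.57, adjusted p = 0.025). Fitted to the 4 libraries compared alone, Hdac2 passed between EYFP and EGFP cells (0.37, adjusted p = 0.04). Hdac1 made up 58.4% and 56.2% of the pair per kilobase in EYFP cells, 55.8% and 60% in EGFP cells and 56.5% and 65.2% in wild-type cells, ranges that overlap.

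Gse1 and Zmym2, found in Kdm1a and deacetylase complexes, were both higher in EYFP cells than in either other group. Gse1 (chr8:120228501-120581383), a coiled-coil protein, had 328 and 345 CPM in EYFP cells, 150 and 202 CPM in EGFP cells and 104 and 101 CPM in wild-type cells. Its log2 fold change was 0.94 ± 0.17 for EYFP over EGFP cells (SE, edgeR adjusted p = 0.0051) and 1.72 ± 0.17 for EYFP over wild type (adjusted p = 0.0001). Gse1 gave 0.78 ± 0.17 for EGFP over wild type (adjusted p = 0.0082), lost without EGFP replicate 2 (0.55, adjusted p = 0.073). Gse1 shares 2758 bases of exon with Gins2, a DNA replication gene on the other strand, in GENCODE, and without strand the reads of both cannot be told apart. Gins2, named for this overlap, had 3.03 and 3.95 CPM in EYFP cells, 15.1 and 11.9 CPM in EGFP cells and 13.7 and 12.5 CPM in wild-type cells. As counted, Gins2 gave -1.95 for EYFP over EGFP cells (edgeR adjusted p = 0.0015). The shared bases may enter both counts, and their part in either level was not tested. Zmym2 (chr14:56886529-56962358), a zinc finger protein of the MYM family, had 122 and 130 CPM in EYFP cells, 72.4 and 71.9 CPM in EGFP cells and 61 and 62.2 CPM in wild-type cells. It was higher in EYFP than in EGFP cells by 0.80 ± 0.12 (adjusted p = 0.0025) and than in wild-type cells by 1.03 ± 0.12 (adjusted p = 0.00024). Zmym2 gave 0.23 ± 0.12 for EGFP over wild type (adjusted p = 0.18).

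Per kilobase, levels of the members could be ordered within a group. In EYFP cells Hdac1 averaged 73.4 ± 4.4 CPM per kilobase, Kdm1a 64 ± 2.6, Gse1 62.2 ± 2.15 and Hdac2 54.7 ± 0.172 (SD, n = 2). Kdm1a and Gse1 overlapped there. Below them came Rcor1 with 18.8, Zmym2 with 18.1, Rcor3 with 16.4 and Rcor2 with 15.7 CPM per kilobase, where Zmym2 overlapped Rcor1 and Rcor2 overlapped Rcor3, and last Rest with 0.466. In EGFP cells the order was Hdac1 58.2, Hdac2 42.3, Kdm1a 35.5, Gse1 32.5, Rcor1 19.5, Zmym2 10.3, Rcor3 9.02, Rcor2 5.91 and Rest 1.77 CPM per kilobase, with Kdm1a and Gse1 overlapping. In wild-type cells it was Hdac1 51.4, Hdac2 33.3, Gse1 19, Kdm1a 18.3, Rcor1 17.6, Rcor3 10.7, Zmym2 8.83, Rest 2.54 and Rcor2 0.703 CPM per kilobase, with Kdm1a overlapping both Gse1 and Rcor1. Rest thus stood last in EYFP and EGFP cells and above Rcor2 in wild-type cells, where the ranges of the pair did not overlap.

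**Figure D3:**
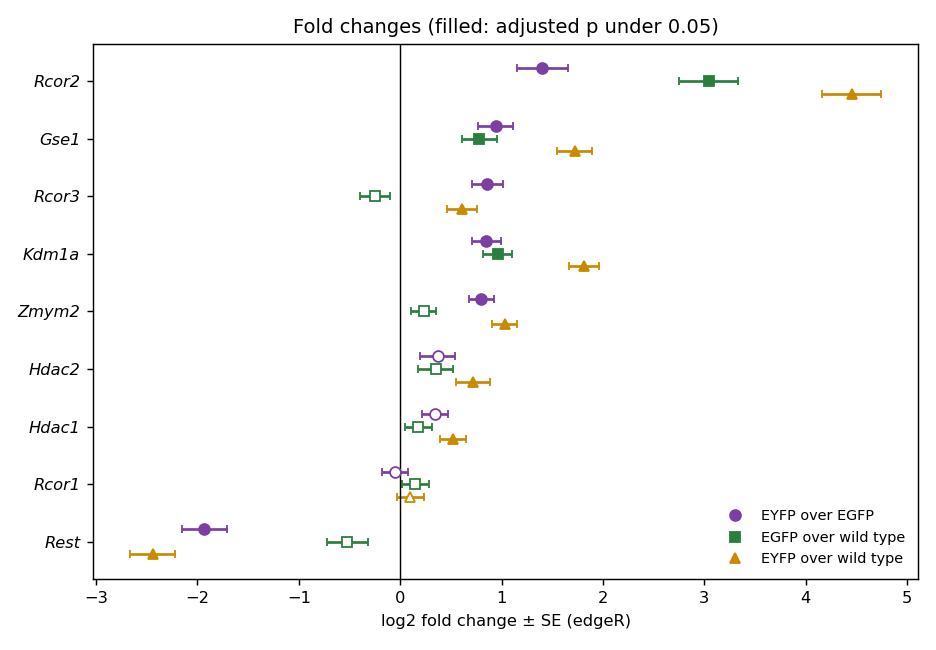
Log2 fold change with its SE (edgeR) of the 9 genes for EYFP over EGFP, EGFP over wild type and EYFP over wild type, with filled symbols at an adjusted p under 0.05. Rest lies left of 0 in all 3, filled in the comparisons with EYFP cells, and Rcor2 lies farthest right in all 3.

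Factors that recruit Kdm1a through a SNAG domain changed strongly. Of 9 such factors 2 had enough counts to test. Insm1, a zinc finger factor of endocrine progenitors, had 522 and 378 CPM in EYFP cells, 96 and 96.6 CPM in EGFP cells and 5.83 and 5.85 CPM in wild-type cells. EYFP cells were above EGFP cells by 2.22 ± 0.18 (SE) in log2 (edgeR adjusted p = 0.00027), and EGFP cells above wild type by 4.04 ± 0.20 (adjusted p = 2.5e-05). Gfi1, which acts in goblet and Paneth cell specification, had 0.352 and 0.505 CPM in EYFP cells, on 5 and 6 counts, 50.8 and 49.4 CPM in EGFP cells and 4.41 and 8.74 CPM in wild-type cells. Gfi1 fell in EYFP cells by 6.85 on the log2 scale against EGFP cells (SE 0.43, adjusted p = 0.00018) and rose in EGFP against wild-type cells by 2.91 ± 0.31 (adjusted p = 0.0003), or 3.50 without wild-type replicate 2. Insm1 thus stood highest in EYFP cells and Gfi1 highest in EGFP cells, the group with the most goblet marker RNA, whose part in the Gfi1 level was not tested.

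Of 15 further proteins known to join REST or CoREST, 3 were higher in EYFP than in EGFP cells, Phf21a and Sin3b among them, and 12 did not pass, beside 16.8% of all genes higher, with a median log2 fold change of 0.15. That count was 1 without any 1 of the EYFP or EGFP libraries. Phf21a, the CoREST subunit that binds unmethylated histone H3, had 57.7 and 55.1 CPM in EYFP cells, 37.5 and 39.1 CPM in EGFP cells and 28 and 28.6 CPM in wild-type cells. EYFP over EGFP gave 0.56 ± 0.13 (SE) for Phf21a (edgeR adjusted p = 0.016), with adjusted p between 0.063 and 0.088 without any 1 of those 4 libraries. Against wild-type cells, 7 of the 15 were higher in EYFP cells and 2 were lower, Hmg20b and Zfp217, beside 27.1% and 33.5% of all genes, with a median of 0.06. Hmg20b, an HMG-box subunit of the complex, had 35.7 and 37.4 CPM in EYFP cells, 41 and 47.9 CPM in EGFP cells and 65 and 89 CPM in wild-type cells, -1.08 ± 0.18 in EYFP over wild type (adjusted p = 0.0014). Between EGFP and wild-type cells 3 were higher, Phf21a and Zmym3 among them, and 2 lower (Hmg20b and Zfp217), beside 19.6% and 21.9% of all genes, with a median of 0.07. Those counts ran from 0 to 2 higher and from 0 to 1 lower without 1 library, with 0 higher without EGFP replicate 2 or wild-type replicate 1 and 0 lower without EGFP replicate 1. Zmym3 is X-linked, and the part of the Xist difference in its level was not tested.

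Proteins that act on REST itself were read as well. Srrm4, a splicing factor that makes a truncated REST in neurons, had 8 and 2 counts in EYFP cells, 0 and 1 in EGFP cells and 0 and 0 in wild-type cells, too few to test. Of the 8 others, Btrc, Ctdsp2 and Ctdspl were higher in EYFP than in EGFP cells and 5 did not pass, 3 of 8 beside 16.8% of all genes, with a median log2 fold change of 0.28. The count was 1 without EYFP replicate 1, EGFP replicate 1 or EGFP replicate 2. Btrc, the ubiquitin ligase subunit that marks REST for degradation, had 43.2 and 38.9 CPM in EYFP cells, 25.8 and 27 CPM in EGFP cells and 16.3 and 19.2 CPM in wild-type cells. It was higher in EYFP cells than in wild-type cells by 1.20 ± 0.17 (SE, edgeR adjusted p = 0.00049) and than in EGFP cells by 0.64 ± 0.16 (adjusted p = 0.02), the value against EGFP cells having an adjusted p between 0.062 and 0.12 without any 1 of those 4 libraries. The 3 small phosphatases that act with REST differed in their order of groups. Ctdspl had 72.6 and 67 CPM in EYFP cells, 41.2 and 45.1 CPM in EGFP cells and 60.2 and 61.5 CPM in wild-type cells, 0.69 ± 0.13 for EYFP over EGFP (adjusted p = 0.0062) and 0.20 for EYFP over wild type (adjusted p = 0.22). Ctdsp2 had 452 and 391 CPM in EYFP cells, 244 and 273 CPM in EGFP cells and 288 and 262 CPM in wild-type cells, 0.70 ± 0.16 for EYFP over EGFP (adjusted p = 0.013), lost without EYFP replicate 1 (adjusted p = 0.088), EGFP replicate 1 (0.092) or EGFP replicate 2 (0.052). Ctdsp1 had 69.4 and 66.3 CPM in EYFP cells, 89.6 and 93.4 CPM in EGFP cells and 124 and 164 CPM in wild-type cells, -1.08 ± 0.16 for EYFP over wild type (adjusted p = 0.00073). EYFP over EGFP gave -0.43 for Ctdsp1 (adjusted p = 0.07), which passed in the 4 libraries compared alone (-0.43, adjusted p = 0.024). It also passed without wild-type replicate 1 (-0.44) or 2 (-0.44). Between EGFP and wild-type cells Btrc was higher and Ctdsp1 and Ctdspl lower, with a median of -0.09, beside 19.6% of all genes higher and 21.9% lower. That higher count was 0 without EGFP replicate 2 or wild-type replicate 1, and the lower count 0 without EGFP replicate 1, EGFP replicate 2 or wild-type replicate 2. Between EYFP and wild-type cells Btrc and Ctdsp2 were higher and Ctdsp1 lower. These were 2 and 1 of 8, beside 27.1% of all genes higher and 33.5% lower. The median there was 0.21, and Ctdsp2 was lost without EYFP replicate 1 (0.51).

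Complexes that share Hdac1 and Hdac2 were read from 17 NuRD and Sin3 genes. Chd4, Chd3 and Gatad2b were higher in EYFP than in EGFP cells and 14 did not pass, 3 of 17 beside 16.8% of all genes, with a median log2 fold change of 0.12 and 1 called without any 1 of those 4 libraries. Chd3, a remodelling ATPase of NuRD, had 254 and 281 CPM in EYFP cells, 109 and 107 CPM in EGFP cells and 234 and 323 CPM in wild-type cells. EGFP cells stood below both other groups, at 1.31 ± 0.18 (SE) for EYFP over EGFP (edgeR adjusted p = 0.0018) and -1.37 ± 0.18 for EGFP over wild type (adjusted p = 0.0008). Its paralog Chd4 had 486 and 425 CPM in EYFP cells, 302 and 308 CPM in EGFP cells and 278 and 279 CPM in wild-type cells, 0.58 ± 0.15 for EYFP over EGFP (adjusted p = 0.021), with an adjusted p between 0.059 and 0.14 without any 1 of those 4 libraries. Gatad2b, a NuRD scaffold, gave 0.65 (adjusted p = 0.021), with 0.083 to 0.1 likewise. Gatad2a, its paralog, had 55.5 and 53.5 CPM in EYFP cells, 73.1 and 64.3 CPM in EGFP cells and 102 and 124 CPM in wild-type cells, -1.05 ± 0.15 for EYFP over wild type (adjusted p = 0.0006). Between EGFP and wild-type cells 1 was higher, the histone chaperone Rbbp4, and 5 were lower (Chd3, Mta3, Gatad2a, Sap18 and Ing2), beside 19.6% of all genes higher and 21.9% lower, with a median of -0.14. The 5 were 3 without EYFP replicate 1, EYFP replicate 2 or EGFP replicate 1 and 2 without EGFP replicate 2, and Rbbp4 was lost without EGFP replicate 1, EGFP replicate 2 or wild-type replicate 2. Against wild-type cells 5 of the 17 were higher and 5 lower in EYFP cells, beside 27.1% and 33.5% of all genes, with a median of -0.06. In that comparison, without 1 library, the higher count was 3 at the lowest, without EYFP replicate 1 or wild-type replicate 2, and the lower count was 1 without EYFP replicate 1, 2 without EGFP replicate 1 and 3 without EYFP replicate 2.

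Of 7 genes of other class I deacetylases and NCoR complexes, 2 were higher, Ncor1 among them, and Tbl1xr1 was lower in EYFP than in EGFP cells, beside 16.8% and 19.4% of all genes, with a median log2 fold change of 0.16. The higher count was 0 without EYFP replicate 2, EGFP replicate 1 or EGFP replicate 2, and the lower count 0 without any 1 of the 4 libraries. Between EYFP and wild-type cells 2 were higher and 3 lower, beside 27.1% and 33.5% of all genes, with a median of -0.07. Those counts were 1 higher without EYFP replicate 2 or either wild-type library, and 2 lower without any 1 library other than wild-type replicate 1. Ncor1 had 367 and 333 CPM in EYFP cells, 255 and 230 CPM in EGFP cells and 441 and 552 CPM in wild-type cells, -1.03 ± 0.18 (SE) for EGFP over wild type (edgeR adjusted p = 0.0025). EYFP over EGFP gave 0.53 ± 0.18 for Ncor1 (edgeR adjusted p = 0.048). That call was lost without any 1 of the 4 libraries, EYFP replicate 1 included (0.45 to 0.66). Hdac3, the deacetylase of the NCoR complexes, had 77.5 and 69.4 CPM in EYFP cells, 83 and 87.3 CPM in EGFP cells and 113 and 120 CPM in wild-type cells, -0.66 ± 0.13 for EYFP over wild type (adjusted p = 0.003). Hdac3 thus stood lowest in EYFP cells, where Hdac1 and Hdac2 stood highest. Between EYFP and EGFP cells Hdac3 gave -0.21 (edgeR adjusted p = 0.24), and Hdac1 and Hdac2 did not pass edgeR's test there either.

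Known REST targets were mostly higher in EYFP cells. Of 36 listed genes 31 could be tested: EYFP over EGFP called 20 higher and 2 lower, beside 16.8% and 19.4% of all genes, and left 9 uncalled, at a median log2 fold change of 1.56. Without 1 library the higher count ran from 14, without EGFP replicate 1, to 20, and the lower count from 0 to 2, with 0 without EGFP replicate 1 and 1 without EYFP replicate 1. EGFP over wild type gave 26 higher and 5 not past the test, beside 19.6% of all genes higher. The median there was 4.04, or 3.94 with genes at 0 counts in a group set at their bound. EYFP over wild type gave 29 higher, 1 lower and 1 not past, beside 27.1% of all genes higher and 33.5% lower. Its median was 5.49, or 5.31 likewise. Many of these genes are also markers of enteroendocrine cells, whose own markers moved alike, and the share of the differences that goes with Rest was not tested.

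Syp, the synaptic vesicle protein synaptophysin, had 138 and 146 CPM in EYFP cells, 36.8 and 59.3 CPM in EGFP cells and 2.33 and 3.32 CPM in wild-type cells, 1.56 ± 0.24 (SE) for EYFP over EGFP (edgeR adjusted p = 0.0029). Chgb, the secretory granule protein chromogranin B, had 47155 and 33106 CPM in EYFP cells, 6279 and 9077 CPM in EGFP cells and 345 and 388 CPM in wild-type cells, 2.39 ± 0.38 for EYFP over EGFP (adjusted p = 0.003), lost without EGFP replicate 1 (2.19, adjusted p = 0.062). Scn2a1, a neuronal sodium channel, had 8.81 and 4.96 CPM in EYFP cells, 0.241 and 0.93 CPM in EGFP cells and 0.0833 and 0.121 CPM in wild-type cells, 3.45 ± 0.61 for EYFP over EGFP (adjusted p = 0.0045). The Scn2a1 estimate was 4.78 without EGFP replicate 2. Each of the 3 was highest in EYFP cells with no overlap. Gjd2, the gap junction protein connexin 36, had 7.96 and 8.58 CPM in EYFP cells, 2.17 and 3.04 CPM in EGFP cells and 0 in both wild-type libraries. Against a floor of 3 counts over the wild-type group, Gjd2 was at least 78.6-fold higher in EYFP cells and at least 25.6-fold higher in EGFP cells. Those bounds were 45.6 and 14.8 without wild-type replicate 1, and 33 and 10.7 without wild-type replicate 2. EYFP over EGFP gave 1.65 ± 0.37 for Gjd2 (adjusted p = 0.015), lost without EYFP replicate 1 (0.063), EYFP replicate 2 (0.076) or EGFP replicate 1 (0.088).

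The targets called lower in EYFP than in EGFP cells, named after their values were seen, were L1cam and Grin1. L1cam, a neural adhesion molecule on the X chromosome, had 51.4 and 62.7 CPM in EYFP cells, 94.1 and 100 CPM in EGFP cells and 98.3 and 84.5 CPM in wild-type cells, -0.77 ± 0.15 (SE) for EYFP over EGFP (edgeR adjusted p = 0.0076). It was lost without EYFP replicate 1 (-0.63, adjusted p = 0.064) or EGFP replicate 1 (-0.76, adjusted p = 0.06). Grin1, an NMDA receptor subunit, had 1.34 and 1.18 CPM in EYFP cells, 5.31 and 4.9 CPM in EGFP cells and 0.5 and 0.603 CPM in wild-type cells, -2.01 ± 0.40 (adjusted p = 0.0073), and -1.90 without EGFP replicate 1 (adjusted p = 0.054). Against wild-type cells Grin1 was higher in EGFP cells, by 3.18 ± 0.43 (edgeR adjusted p = 0.00089). EYFP over wild type gave 1.17 ± 0.45 for Grin1 (edgeR adjusted p = 0.055). Enteric neurons and glia also make neuronal RNA. The summed CPM of their 7 markers was 4.72 and 4.63 in EYFP cells, 2.05 and 2.71 in EGFP cells and 2 and 1.69 in wild-type cells, with Hand2 and Sox10 at 0 in all 6 libraries.

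The target genes whose promoters hold the letters printed above followed the list in part. Celsr3, a cadherin of neuronal guidance, had 135 and 150 CPM in EYFP cells, 33 and 40.8 CPM in EGFP cells and 4.25 and 5.79 CPM in wild-type cells, 1.95 ± 0.18 (SE) for EYFP over EGFP (edgeR adjusted p = 0.00045). Unc13a, a priming factor of vesicle release, had 110 and 102 CPM in EYFP cells, 23.8 and 35.9 CPM in EGFP cells and 1.58 and 1.63 CPM in wild-type cells, 1.83 ± 0.20 (adjusted p = 0.00073). Dner, a ligand-like protein of the Notch pathway that holds both the left part and the core, had 28.4 and 28.2 CPM in EYFP cells, 13.7 and 19.8 CPM in EGFP cells and 0.416 and 0.663 CPM in wild-type cells. Dner gave 0.75 ± 0.24 for EYFP over EGFP (adjusted p = 0.042), lost without EYFP replicate 1 (0.15), EYFP replicate 2 (0.15) or EGFP replicate 1 (0.18). Syn1, synapsin I, had 4.16 and 9.42 CPM in EYFP cells, 2.17 and 3.55 CPM in EGFP cells and 0.167 and 0.241 CPM in wild-type cells, 1.22 ± 0.50 (adjusted p = 0.09), which passed without EYFP replicate 1 (1.70, adjusted p = 0.049), fell short without EYFP replicate 2 (0.52) and passed with a replicate block (1.19, adjusted p = 0.044). Scg2, the granule protein secretogranin II, had 143 and 706 CPM in EYFP cells, 224 and 456 CPM in EGFP cells and 10.8 and 11.9 CPM in wild-type cells, so EYFP and EGFP cells overlapped (0.32 ± 0.81, adjusted p = 0.79), with -1.26 without EYFP replicate 2. Gria2, a glutamate receptor subunit, had too few counts to test.

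**Figure D4:**
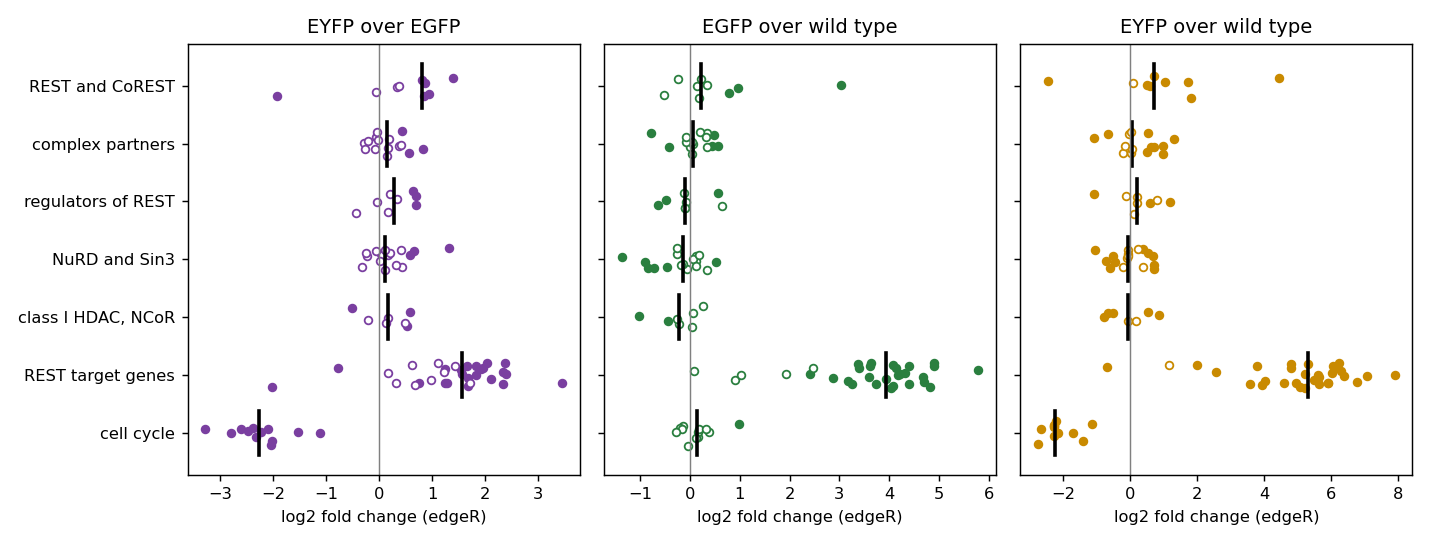
Log2 fold change (edgeR) of each tested gene of 7 lists in EYFP over EGFP, EGFP over wild type and EYFP over wild type, filled at an adjusted p under 0.05, with a bar at the median and genes at 0 counts in a group drawn at their bound. REST target genes have medians of 1.56, 3.94 and 5.31, cell cycle genes lie at -2.27 in EYFP over EGFP, and the partner, regulator and deacetylase lists lie near 0.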

How the data were processed

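Total RNA was extracted with an RNeasy Micro kit and made into Illumina TruSeq libraries read as single 50 base reads, per the labels' protocols. The submitters' processing notes name the build mm10 and the tools RSEM 1.3.1, Bowtie2, DESeq2 1.26.0 and FastQC 0.11.8, without their roles or the strand setting. The authors deposited estimated counts per gene, which were rounded here. The authors' deposited table of comparisons also holds a size-factor scaled signal per library, a linear fold and an adjusted p-value; its folds have wild type on top in both comparisons with wild type.

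Genes with low counts were removed by filterByExpr, leaving 58.4%. Counts were scaled by TMM and tested in edgeR 4.0.16 (R 4.3.3), with a robust quasi-likelihood fit of 3 group means over 6 libraries, 3 residual degrees of freedom, and p-values adjusted by Benjamini-Hochberg over all 13935 genes and called at 0.05. The biological coefficient of variation was 19.8%. SE was derived from F. Lengths per kilobase are means of the GENCODE vM21 transcripts matched to a gene's RefSeq accessions; sequences and coordinates are RefSeq's GRCm38.p6 (mm10), and 98.9% of genes matched.

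The members and lists were chosen with earlier results of these data known. Genes named are the members, the first gene of each list that is no marker list and its largest changes past the test (2 in EYFP over EGFP, 1 in each other comparison), Insm1, Gfi1, Neurog3, Xist, and the 3 genes most like Rest and Rcor2 (log2 of CPM + 0.5, mean of at least 10 CPM). Some genes the rule names are not reported here. Others were named for their letters, overlap or direction after their values were seen. Alternatives were DESeq2 1.42.0 (size factors, Wald test), totals without the 50 most abundant genes, 2 other filters, a fold of at least 2, the 4 libraries compared, a replicate block and each library left out, a lone library being assumed to vary like the others.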

Additional observations from a re-analysis of the deposited data

How the results depend on the processing

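The members' 117 values per comparison under the alternatives kept direction and call in 111 (EYFP over EGFP), 115 (EGFP over wild type) and 116 (EYFP over wild type), and the rest stand beside the members. With a fold of at least 2, all genes numbered 1488 higher and 1473 lower in EYFP over EGFP, where 1 member was higher. Genes lower at that fold numbered 1810 in EGFP over wild type and 3087 in EYFP over wild type. Those are no background for the higher members. Leaving out 1 library, EYFP over EGFP called 1138 to 2525 genes higher and 1254 to 2958 lower, and EGFP over wild type 1820 to 3019 lower. Estimates that changed sign had not passed edgeR's test over all 6 libraries. In EYFP over EGFP these were Rcor1 (0.02 with DESeq2's scaling and Wald test, -0.07 to 0.01 without 1 library) and Scg2 (-1.26 to 1.05). In EGFP over wild type they were Ctdsp2 (-0.17 to 0.09), Gatad2b (-0.01 to 0.17), Rrm2 (-0.12 to 0.41), Bub1 (-0.46 to 0.24), L1cam (-0.02 to 0.23), Gins2 (-0.03 to 0.21) and Mki67 (-0.34 to 0.34, and 0.03 in the 4 libraries compared). In EYFP over wild type they were Chd3 (0.06 with DESeq2's scaling and Wald test, 0.11 in the 4 libraries, -0.27 to 0.19 without 1 library) and Xist (-9.14 to 0.30, called with the Wald test at -7.79 and without wild-type replicate 1 at -8.97). The cause was not tested. The median of all genes moved by 0.11 in EYFP over wild type with DESeq2's size factors and by 0.16 in the 4 libraries. The replicate numbers are not shown to pair the libraries (r of 0.02, 0.10 and 0.01, 2 pairs each). With a replicate block, 2512 genes were higher and 2932 lower in EYFP over EGFP, and no member's call changed. Depth limits Rest in EYFP cells, at 46 and 39 counts, and Rcor2 in wild-type cells, at 18 and 41.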
